A study of Mus musculus with 27 samples.

Results

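Day 5 of differentiation was examined in mouse embryonic stem cells that carried a short hairpin RNA (shRNA) against Sox17, set beside cells with an shRNA against firefly luciferase. The comparison rests on the arrays titled for day 5 in either arm, which are 4 of the 27 arrays of the series, 2 for each arm. All cells were of the AB2.2 line, a mouse embryonic stem cell line, and all had received a lentivirus that makes its shRNA together with enhanced green fluorescent protein. The treated group thus held Sox17 shRNA cells at day 5, and the control group held luciferase shRNA cells at day 5. Both were sorted for green fluorescence, grown in hanging drops as embryoid bodies, which are clumps of differentiating cells, and plated after 4.5 days, so day 5 was the earliest harvest after plating. The series followed both arms from day 0 to day 10 on Affymetrix mouse arrays, and its title asks about Hhex, Cer1 and the formation of cardiac mesoderm. An array read RNA pooled from whole cultures of mixed cell types, and the labels name 1 shRNA against Sox17, so another hairpin was not analysed here. The labels call the replicates biological but do not say that they were transduced separately, so the spread between them may be technical. The p-values rest on that spread pooled over all 27 arrays, 1 estimate for each gene, and not on that of the 4 day 5 arrays alone.

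Sox17 is a transcription factor of the Sox family that is needed for definitive endoderm, the layer that forms gut and its organs. In the embryo, endoderm and mesoderm both leave the primitive streak, a transient region marked by Mixl1, Eomes and Nodal, and cells switch the streak genes off as they move away from it. Anterior endoderm secretes antagonists such as Cer1 that act on neighbouring mesoderm, part of which becomes heart.

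Values are log2 expression values made with RMA, a method that corrects background, sets all arrays to 1 distribution and summarises the probes of a set. They have no fixed zero, a difference is measured relative to the rest of each array, and folds against a level near background are understated. The 13297 genes with a value above the overall median (5.53) on at least 2 arrays were tested with limma in a fit of all 27 arrays, and a gene was called at an adjusted p below 0.05. Over these genes the Sox17 shRNA replicates of day 5 correlated at 0.979 and the control replicates at 0.995. The SD of the difference between replicates was 0.38 in the Sox17 shRNA arm and 0.18 in the control arm. Sox17 shRNA replicate 1 stood apart from the other 3 arrays in technical signals. The bacterial control transcript bioB, spiked into the hybridisation mix, read 7.67 there against 6.54 to 6.76 on the others. Its 18S ribosomal RNA probe set read 5.60 against 6.70 to 6.88. The actin control, whose 3' and 5' probe sets grow apart as RNA degrades, gave 3' minus 5' differences of 0.43 to 0.55 on all 4.

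Sox17 itself read 7.77 and 10.08 in Sox17 shRNA replicates 1 and 2, and 10.38 and 10.38 in the control arrays. Replicate 1 was well below the controls, while replicate 2 lay close beneath them, and the arms did not overlap. The difference was -1.45 (SE 0.80, n = 2 per arm, limma adjusted p = 0.307) and did not pass the test. It was -0.30 without Sox17 shRNA replicate 1 (adjusted p = 0.954) and -2.61 without replicate 2 (adjusted p = 0.0622). With the bioB signal as a covariate it was -0.89 (adjusted p = 0.36). The other Sox17 probe set gave -1.24. The array with the deeper Sox17 reduction was thus also the one with the higher spike-in and lower 18S signal. Their parts in what follows cannot be told apart with 1 such array.

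At day 5, 11 of 19 primitive streak genes were called higher with Sox17 shRNA, against 6.15% of all genes, and Mixl1 among them was 17.5-fold higher. So were 9 of 20 Fgf genes (with 1 lower), 6 of 14 Wnt targets and 5 of 20 Nodal pathway genes. The factors Alx1, Foxc2, Rarb and Mef2c and the chromatin subunit Smarcd3 were lower by 3.16-fold to 8.60-fold. Of 24 definitive endoderm genes 5 were lower and 1 higher, and of 18 basement membrane genes 5 were lower, against 3.24% of all genes. Several muscle contraction genes, Tnnt2, Myh6 and Ttn among them, read near background in both arms. Of 25 contractile genes, 2 were called lower (Myh7 and Tnnc1, 8%) and 1 higher (Tpm1, 4%). In all, 1249 of 13297 genes were called (9.39%), of which 818 were higher (6.15%) and 431 lower (3.24%). At least 2-fold changes were found for 154 higher (1.16%) and 116 lower genes (0.872%). The arms did not overlap for any of the 1249 called genes. Of all genes tested, 27.7% lay higher and 24.6% lower without overlap, 52.3% together. The median difference over all genes was 0.0024. Because the RNA came from whole cultures, fewer cells of a type and less RNA per cell cannot be told apart in any of these groups.

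**Figure D1:**
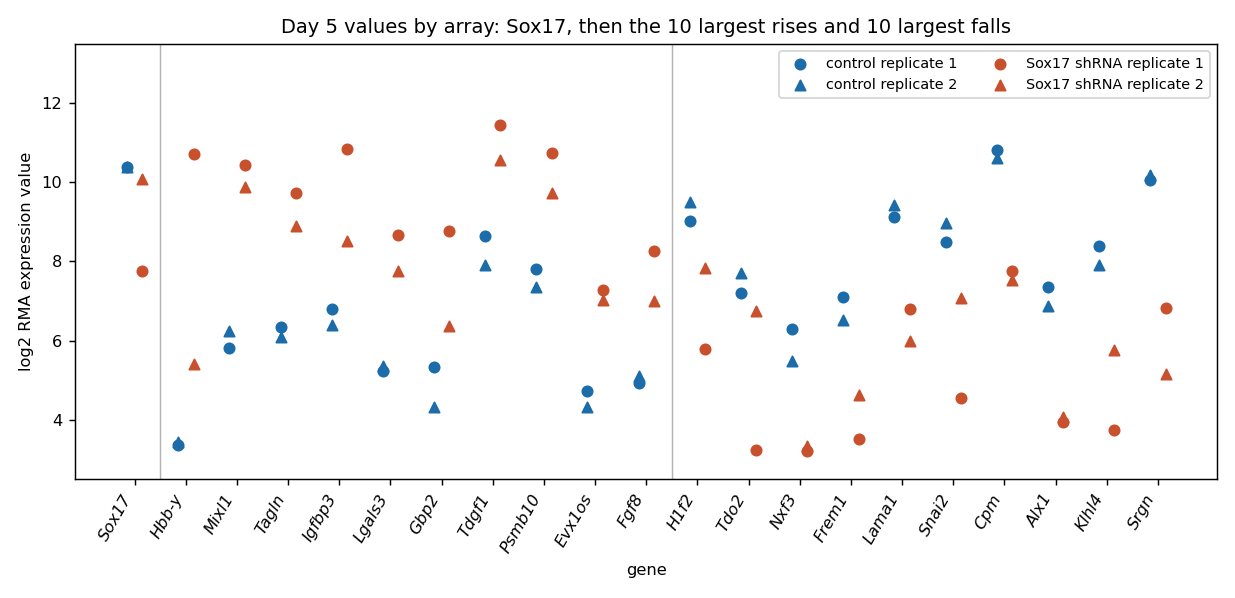
Log2 RMA values on the 4 day 5 arrays (y axis) for Sox17 and for the 10 called genes with the largest positive and the 10 with the lowest negative difference (x axis). Blue points are control arrays and orange points Sox17 shRNA arrays, with circles for replicate 1 and triangles for replicate 2. Sox17 shRNA replicate 2 lies near the controls for Sox17 (10.08 against 10.38), while Mixl1 is high in both Sox17 shRNA arrays (10.43 and 9.89).

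Sox17 shRNA replicate 1 was the farther from the control mean for 966 of the 1249 called genes (77.3%), against 61.9% of all genes. Among genes called higher, the median distance from the control mean was 0.75 for replicate 1 and 0.57 for replicate 2. Among genes called lower, it was -0.84 and -0.56. With 1 array left out, 1 array remains in that arm, and the SE grows for a given spread. A call can then be lost while the difference holds. The share of all genes called moves as well, and counts of list members in these fits go with the shares given here. Without Sox17 shRNA replicate 1, 236 genes were higher (1.77%) and 92 lower (0.692%). Without Sox17 shRNA replicate 2, 947 were higher (7.12%) and 763 lower (5.74%). Without control replicate 1 the counts were 222 (1.67%) and 93 (0.699%), and without control replicate 2 they were 346 (2.6%) and 180 (1.35%). The call held without any 1 of these 4 arrays for 133 higher and 65 lower genes.

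**Figure D2:**
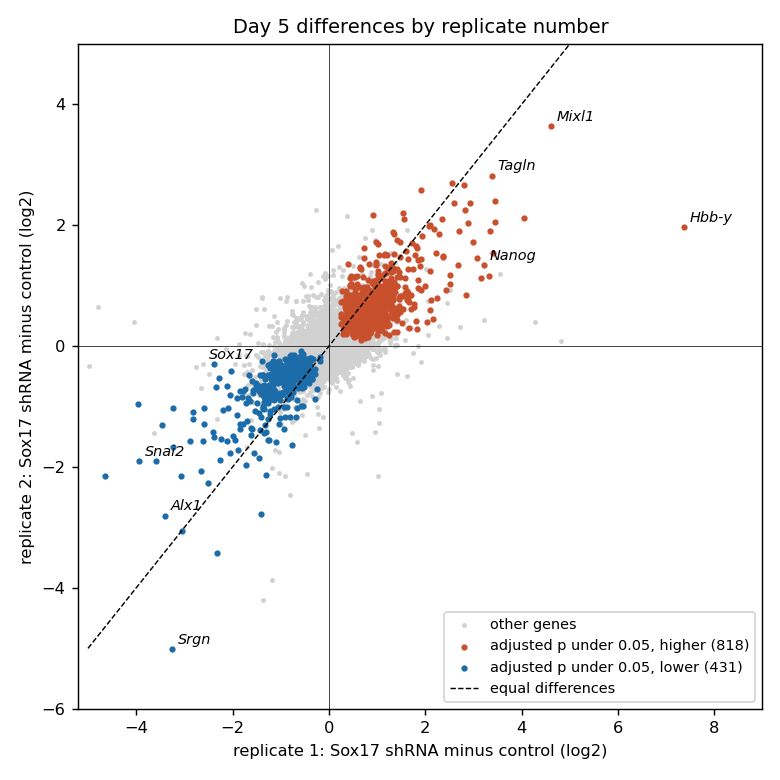
Log2 differences between arms at day 5 for each of 13297 genes, replicate 1 minus replicate 1 (x axis) and replicate 2 minus replicate 2 (y axis), with genes called higher in orange and lower in blue and the dashed line marking equal differences. Replicate numbers only name the arrays here and were not taken to pair them. Mixl1 lies close to the line (4.61 and 3.64), whereas Sox17 (-2.61 and -0.30) and Hbb-y (7.37 and 1.96) differ mainly in replicate 1.

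Primitive streak genes were the group with the highest median difference among the gene lists, 1.06 over 19 measured members. Of these 19, 11 were called higher (57.9%, against 6.15% of all genes), and limma called 0 lower (0 at an unadjusted p under 0.05). Mixl1, a homeobox factor of the streak, read 10.43 and 9.89 with Sox17 shRNA and 5.82 and 6.25 in control, so both Sox17 shRNA arrays lay about as high as each other and far above the controls. The difference was 4.13 (SE 0.37, adjusted p = 4.6e-06), or 17.5-fold. Gsc, a homeobox factor of the anterior streak and organizer, read 6.50 and 6.44 against 4.40 and 4.44. Both arms had close replicates and lay far apart, with a difference of 2.05 (SE 0.28, adjusted p = 2.39e-04). Eomes, a T-box factor needed for mesendoderm, read 9.68 and 9.80 against 8.33 and 8.28 (1.44, SE 0.37, adjusted p = 0.0193). Its replicates were close in both arms, but the call was lost without any 1 of the 4 arrays (adjusted p from 0.0594 to 0.113). Without Sox17 shRNA replicate 1 the list held 6 higher members and a median of 0.68, and without either control replicate it also held 6.

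Evx1, a homeobox factor of the posterior streak, and Evx1os, a long non-coding RNA annotated on the opposite strand across its start, rose together. Evx1 read 8.92 and 8.88 with Sox17 shRNA against 6.31 and 6.52 in control, a difference of 2.48 (SE 0.22, 5.59-fold, adjusted p = 3.74e-06). Evx1os read 7.27 and 7.04 against 4.72 and 4.33, a difference of 2.63 (SE 0.28, 6.18-fold, adjusted p = 2.23e-05). In both, the 2 Sox17 shRNA arrays agreed closely and stood clear of the controls. Which strand each probe set reads is not given in the sources used here. The RefSeq windows of 300 bases around their starts are printed because the genes share this stretch of chromosome 6 and moved together. They are in GRCm38.p6, with Evx1 at chr6:52313248-52313547 on the plus strand and Evx1os at chr6:52314783-52315082 on the minus strand. Capitals mark the letters ATTGTT or their reverse complement AACAAT, a core to which Sox factors can bind.
Evx1: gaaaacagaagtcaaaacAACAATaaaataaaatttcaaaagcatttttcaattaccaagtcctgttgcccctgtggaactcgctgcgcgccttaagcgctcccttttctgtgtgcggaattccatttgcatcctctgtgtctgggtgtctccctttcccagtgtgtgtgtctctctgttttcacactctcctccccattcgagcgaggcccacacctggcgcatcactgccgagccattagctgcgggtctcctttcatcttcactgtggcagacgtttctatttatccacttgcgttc
Evx1os: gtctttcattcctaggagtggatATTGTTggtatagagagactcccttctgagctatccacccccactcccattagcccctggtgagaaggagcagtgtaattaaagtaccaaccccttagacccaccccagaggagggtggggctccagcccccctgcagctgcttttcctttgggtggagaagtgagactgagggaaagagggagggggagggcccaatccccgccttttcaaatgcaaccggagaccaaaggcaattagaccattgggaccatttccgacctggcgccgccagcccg
These letters occur, on either strand, in 10.7% of the 32851 RefSeq windows searched. Their presence here is a description of the sequence and shows no binding.

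Genes of the posterior streak and tail bud overlap with that list and had 8 of 18 members higher (44.4%), with none lower at an unadjusted p under 0.05, and a median of 0.55. Without Sox17 shRNA replicate 1 or control replicate 1 it had 5 higher. Nkx1-2, a homeobox factor of the caudal epiblast, read 6.87 and 6.18 against 4.18 and 4.28 in control (2.30, SE 0.24, 4.92-fold, adjusted p = 1.68e-05). Cdx2, which sets up posterior identity, read 7.72 and 7.69 against 6.27 and 6.47 (1.34, SE 0.28). Its adjusted p of 0.00706 became 0.0656 without Sox17 shRNA replicate 1 and 0.0833 without control replicate 1. Wnt5b, a secreted Wnt ligand of the streak, read 6.79 and 6.18 against 4.57 and 4.64 (1.88, SE 0.26, adjusted p = 3.08e-04). Rspo3, a secreted amplifier of Wnt signals, read 10.13 and 9.19 against 7.76 and 7.71 (1.93, SE 0.34, adjusted p = 0.00184, and 0.0501 without Sox17 shRNA replicate 1). For all 4 genes both Sox17 shRNA arrays lay above both controls. The 3 probe sets of Nkx1-2 spanned 0.16 to 2.30, and the 2 of Rspo3 gave 0.56 and 1.93. Among 20 measured Hox genes, 4 were called higher (20%, against 6.15% of all genes), with a median of 0.11. The median was 0.14 without control replicate 1 and 0.04 without Sox17 shRNA replicate 1. Hoxd9 was the clearest at 7.29 and 7.05 against 5.11 and 5.11 (2.06, SE 0.32, 4.17-fold, adjusted p = 7.7e-04), with Sox17 shRNA arrays well above the 2 like controls. Hoxd8 differed by 1.06, Hoxc8 by 0.79 and Hoxb6 by 0.50, and each call was lost in some fits with 1 array left out. The difference of Hoxd8 stayed at 1.03 to 1.10 in these fits. Hoxd8 was not called without Sox17 shRNA replicate 1 (adjusted p = 0.0589) or control replicate 1 (0.0616). With 1 array left out, Hoxc8 was called in 1 of the 4 fits, that without Sox17 shRNA replicate 1, and differed by 0.46 without replicate 2 (adjusted p = 0.219). Hoxb6 was called in 1 of these 4 fits, that without control replicate 2, and differed by 0.25 without control replicate 1 (adjusted p = 0.53).

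Among ligands and receptors of the Nodal pathway, which patterns the streak, 5 of 20 members were higher (25%, against 6.15% of all genes), with a median of 0.13. The count was 3 without Sox17 shRNA replicate 1 or either control replicate, and 7 higher with 2 lower without Sox17 shRNA replicate 2. The ligand Nodal read 8.26 and 7.88 against 6.40 and 6.46 (1.64, SE 0.27, 3.12-fold, adjusted p = 0.00124). The co-receptor Tdgf1 read 11.46 and 10.57 against 8.65 and 7.90 (2.74, SE 0.39, 6.67-fold, adjusted p = 4.13e-04). In both genes the Sox17 shRNA arrays stood above the controls, and the call held without any 1 array. The feedback inhibitors Lefty1 and Lefty2, themselves targets of Nodal, differed by 1.35 and 1.52. Lefty2 read 6.16 and 4.64 against 3.91 and 3.85, so its replicate 1 was far above replicate 2, and without replicate 1 the difference was 0.76 (adjusted p = 0.409). For Lefty1 it was 0.56 (adjusted p = 0.483), and 2.13 without replicate 2. The pattern for Lefty genes thus rested mainly on the array with the lower Sox17. The calls of Lefty1 and Lefty2 were also lost without either control replicate (adjusted p from 0.115 to 0.136).

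Fgf ligands and the feedback genes that Fgf signalling induces had 9 of 20 members higher (45%), 1 lower (5%) and a median of 0.95. Fgf8, a ligand made in the streak, read 8.27 and 6.999 against 4.93 and 5.09 in control (2.62, SE 0.33, 6.15-fold, adjusted p = 1.53e-04). Fgf15, another ligand, read 7.58 and 7.62 against 6.11 and 6.15 (1.47, SE 0.25, adjusted p = 0.00156). Fgf10, a ligand of mesoderm and early heart field, read 6.37 and 6.70 against 5.18 and 5.49 (1.20, SE 0.18, adjusted p = 4.72e-04). In all 3 ligands the Sox17 shRNA arrays lay above the controls, and Fgf15 showed almost no gap between replicates of either arm. Of the feedback genes, the phosphatase Dusp6 read 10.90 and 9.26 against 8.86 and 8.87 (1.21, SE 0.33, adjusted p = 0.0281) and the factor Etv5 read 9.46 and 8.83 against 8.01 and 8.24 (1.01, SE 0.19, adjusted p = 0.0034). Dusp6 was high in replicate 1 in the main, and its difference without that array was 0.39 (adjusted p = 0.514) and without replicate 2 it was 2.04, while for Etv5 it was 0.70 (adjusted p = 0.0854). Both lost the call without control replicate 1 as well (adjusted p = 0.153 and 0.0607), and Dusp6 without control replicate 2 (adjusted p = 0.12). The receptor Fgfr2 was the member that fell, from 8.18 and 8.35 in control to 7.07 and 7.60 (-0.94, SE 0.19, adjusted p = 0.00528, and 0.117 without Sox17 shRNA replicate 1 and 0.0554 without control replicate 2). The list held 3 higher members and a median of 0.55 without Sox17 shRNA replicate 1, and 4 higher members without control replicate 1.

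Of 14 measured targets of the Wnt pathway, 6 were higher (42.9%), with a median of 0.46. Ccnd1, a cyclin of the G1 phase, read 10.10 and 10.10 against 8.94 and 8.78 (1.24, SE 0.18, adjusted p = 4.7e-04) and held its call without any 1 array. Tnfrsf19, a receptor that Wnt signals induce, read 9.60 and 7.96 against 7.16 and 7.03 (1.68, SE 0.34, adjusted p = 0.00454), with replicate 1 the higher. Without replicate 1 its difference was 0.86 (adjusted p = 0.0731). Myc differed by 1.16 and Nkd1, a feedback inhibitor of Wnt signalling, by 0.97, and in these 2 genes replicate 2 was the higher. Nkd1 read 6.15 and 7.09 against 5.49 and 5.82, and without Sox17 shRNA replicate 2 it differed by 0.50 (adjusted p = 0.219). Nkd1 was also not called without control replicates 1 and 2 (adjusted p = 0.206 and 0.053), nor was Myc without Sox17 shRNA replicate 2 (0.0597) or control replicate 1 (0.099). The list's higher members numbered 3 without Sox17 shRNA replicate 1, 4 without replicate 2, and 2 and 3 without control replicates 1 and 2.

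Pluripotency genes were higher mainly in Sox17 shRNA replicate 1. Of 23 measured members 7 were called higher (30.4%), with a median of 0.58. Nanog, a homeobox factor of pluripotent cells that is also active in the early streak, read 9.90 and 7.47 against 6.68 and 6.12 (2.28, SE 0.62, adjusted p = 0.027). Zfp42, a zinc finger marker of stem cells, read 9.42 and 7.13 against 6.11 and 5.96 (2.24, SE 0.53, adjusted p = 0.0132). Dppa3, a germ cell and stem cell factor, read 8.69 and 6.54 against 5.52 and 5.42 (2.14, SE 0.53, adjusted p = 0.0162). In each of these, replicate 1 lay over 2 log2 units above replicate 2, which was itself above the controls. Pou5f1, a core factor of pluripotency, read 10.75 and 8.57 against 9.12 and 9.06, so the arms overlapped. Without replicate 1 the list had 1 called member, Tdgf1, and a median of 0.08, and Nanog differed by 1.06 (adjusted p = 0.465), Zfp42 by 1.09 (adjusted p = 0.277) and Dppa3 by 1.07 (adjusted p = 0.33). Without replicate 2 it had 15 higher members and a median of 1.11, and Nanog, Zfp42 and Dppa3 differed by 3.50, 3.39 and 3.22. Without control replicate 1 or 2 it also had 1 called member, and these 3 genes lost their calls (adjusted p from 0.0825 to 0.169). The spike-in and 18S signals of replicate 1 move with this group at day 5, and their part in it was not tested. The fit with bioB as a covariate is not broken down by list here. On the other arrays of day 4, 8 of the 23 members were called higher, with a median of 0.68. Zfp42 differed there by 2.23 (limma adjusted p = 0.0223) and Dppa3 by 2.38 (adjusted p = 0.015), while Nanog was not called. At day 6, 1 member was higher and 2 were lower, with a median of 0.24.

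Alx1, Foxc2, Foxc1, Pcdh8 and Snai2, genes active in mesenchyme or paraxial mesoderm, were lower with Sox17 shRNA. Alx1, a homeobox factor of craniofacial mesenchyme, read 3.95 and 4.06 with Sox17 shRNA and 7.35 and 6.87 in control. Both Sox17 shRNA arrays were low and alike, and the difference was -3.10 (SE 0.22, 8.60-fold, adjusted p = 4.59e-07). Foxc2, a forkhead factor of mesoderm and blood vessels, read 4.43 and 4.56 against 6.94 and 6.82 (-2.39, SE 0.32, 5.22-fold, adjusted p = 2.19e-04). Its relative Foxc1 read 6.12 and 5.66 against 7.37 and 7.21 (-1.40, SE 0.26, adjusted p = 0.0028). Pcdh8, a protocadherin of paraxial mesoderm, read 5.56 and 5.65 against 7.50 and 7.21 (-1.75, SE 0.31, adjusted p = 0.002). Snai2, a zinc finger repressor of epithelial genes, read 4.54 and 7.08 against 8.48 and 8.98 (-2.92, SE 0.47, adjusted p = 9.51e-04). All 5 stayed below the controls in both Sox17 shRNA arrays and were called without any 1 array, although Snai2 in replicate 2 was much nearer the control and differed by -1.65 without replicate 1. Of 20 measured mesenchyme genes, 3 were lower (Alx1, Foxc1 and Foxc2) and 3 higher (Fn1, Col1a1 and Col5a1), with a median of -0.03. Each count was 15% of the list, against 3.24% of all genes lower and 6.15% higher. Fn1, the matrix protein fibronectin, read 12.22 and 12.32 against 11.10 and 11.15 (1.15, SE 0.30, adjusted p = 0.0215). With any 1 of the 4 arrays left out it differed by 1.10 to 1.19, but its call was then lost. Col1a1 and Col5a1, collagen chains, differed by 0.88 and 0.85. Col1a1 differed by 1.33 without Sox17 shRNA replicate 1 and by 0.43 without replicate 2, and the list held 0 higher members without replicate 2 or either control replicate. Of 22 early mesoderm genes, 3 were lower (Foxc2, Isl1 and Foxc1), or 13.6% against 3.24% of all genes, and the median was 0.01. The call of Isl1 among them was lost in the fits with 1 array left out.

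Rarb encodes a receptor for retinoic acid and is also a target of it. It read 4.50 and 4.76 with Sox17 shRNA and 6.75 and 6.65 in control. The Sox17 shRNA arrays lay near background, clear of the controls, with a difference of -2.07 (SE 0.21, 4.20-fold, adjusted p = 1.12e-05). Chosen after their values were seen, Aldh1a2, the enzyme that makes retinoic acid in early mesoderm, read 6.00 and 5.48 against 6.19 and 6.26 (adjusted p = 0.406), and Cyp26a1, an enzyme that breaks it down, read 11.01 and 11.14 against 10.60 and 10.69 (adjusted p = 0.649). A RefSeq start window of Rarb is printed because it holds a direct repeat that retinoic acid receptors are known to bind. It lies at chr14:16575427-16575726 on the minus strand in GRCm38.p6. Capitals mark the Sox core ATTGTT and each copy of the repeated letters in GTTCACNNNNNGTTCAC.
Rarb: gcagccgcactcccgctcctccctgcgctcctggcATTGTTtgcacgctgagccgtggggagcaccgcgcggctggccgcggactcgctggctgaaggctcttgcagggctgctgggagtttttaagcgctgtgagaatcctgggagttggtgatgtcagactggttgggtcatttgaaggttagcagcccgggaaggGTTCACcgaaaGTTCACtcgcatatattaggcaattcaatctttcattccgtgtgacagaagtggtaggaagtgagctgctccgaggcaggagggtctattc
The repeat was searched after the window had been read, and it occurs in 2 of 32851 windows (0.00609%). Whether either stretch acts in these cells was not tested.

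Heart progenitor genes were divided. Of 21 measured members 4 were lower (19%, against 3.24% of all genes), 1 was higher (4.76%), and the median was -0.11. Without either control replicate 2 were lower. Mef2c, a MADS-box factor of the heart fields, read 4.93 and 5.08 with Sox17 shRNA and 6.49 and 6.84 in control (-1.66, SE 0.26, 3.16-fold, adjusted p = 8.3e-04). Smarcd3, a chromatin remodelling subunit that marks early heart precursors, read 5.36 and 5.99 against 7.26 and 7.71 (-1.81, SE 0.25, 3.50-fold, adjusted p = 2.64e-04). In both, the Sox17 shRNA arrays were low and the arms apart, and the calls held without any 1 array. Isl1, a LIM factor of the second heart field, read 8.33 and 8.60 against 10.03 and 9.83 (-1.47, SE 0.44, adjusted p = 0.0423), and Hopx, a small homeodomain protein of heart, differed by -0.56 (adjusted p = 0.0107). The call of Isl1 was lost without any 1 array (adjusted p from 0.064 to 0.26), and that of Hopx without all but Sox17 shRNA replicate 1 (adjusted p from 0.0518 to 0.096). Fgf10 was the member that rose. Gata6, a factor shared with endoderm, read 8.02 and 8.46 against 8.55 and 8.69 and was not called (adjusted p = 0.713).

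Several contractile genes of heart muscle read near background at day 5. Tnnt2, cardiac troponin T, read 3.91 and 3.91 against 3.80 and 4.11. Myh6 read 3.73 and 3.72 against 3.98 and 4.18, Ttn read 4.43 and 4.39 against 4.45 and 4.46, and Myl2 read 4.42 and 4.50 against 4.37 and 4.59. All of these lie well below the overall median of 5.53 in both arms. Actc1 and Myl7 were somewhat higher, Actc1 at 6.44 and 5.88 against 6.19 and 5.63 and Myl7 at 5.03 and 6.19 against 6.77 and 5.97, with overlapping arms. Of 25 measured contractile genes 2 were lower at day 5 (8%), 1 was higher (4%), and the median was -0.02. Myh7, the slow myosin heavy chain, read 4.78 and 4.84 against 6.90 and 6.41 (-1.84, SE 0.53, adjusted p = 0.0359). Tnnc1, troponin C of heart and slow muscle, read 6.08 and 7.31 against 8.20 and 7.97 (-1.39, SE 0.42, adjusted p = 0.0451). The call of Myh7 was lost without any 1 array (adjusted p from 0.0754 to 0.239). That of Tnnc1 was lost without every array except Sox17 shRNA replicate 2 (adjusted p from 0.128 to 0.52), and its difference was -0.78 without Sox17 shRNA replicate 1. Tpm1, a tropomyosin that many cell types use, was the member that rose (11.72 and 11.25 against 10.39 and 10.42, 1.08, SE 0.21, adjusted p = 0.00395, and 0.0854 without Sox17 shRNA replicate 1).

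Definitive endoderm markers had a median of -0.74 over 24 members, the lowest of the 34 lists, with 5 lower (20.8%) and 1 higher (4.17%). Cpm, the membrane enzyme carboxypeptidase M, read 7.77 and 7.54 with Sox17 shRNA and 10.83 and 10.61 in control (-3.06, SE 0.30, 8.34-fold, adjusted p = 1.12e-05). Otx2, a homeobox factor of anterior endoderm and epiblast, read 7.91 and 8.26 against 9.70 and 9.55 (-1.54, SE 0.24, adjusted p = 7.81e-04). In both, the arms lay far apart relative to their replicates. Foxa1, a forkhead factor of endoderm, read 5.71 and 8.00 against 8.95 and 9.02 (-2.13, SE 0.55, adjusted p = 0.0222), and the membrane protease Tmprss2 read 7.17 and 8.41 against 9.54 and 9.91 (-1.94, SE 0.42, adjusted p = 0.00741). Here replicate 1 was the lower, and without it Foxa1 differed by -0.99 (adjusted p = 0.413) and Tmprss2 by -1.32 (adjusted p = 0.16). Foxa2 differed by -1.03 (adjusted p = 0.0237, and 0.226 without replicate 1). Without replicate 2 Foxa1 differed by -3.27. Foxa1 and Foxa2 also lost the call without either control replicate (adjusted p from 0.109 to 0.138), and Tmprss2 without control replicate 2 (0.0707). The member that rose was Gsc, which also marks the anterior streak. Without Sox17 shRNA replicate 1 the list had 2 lower members and a median of -0.44, and without replicate 2 it had 10 and -1.04. Without control replicates 1 and 2 it had 3 and 2.

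Cer1 and Hhex, the genes named in the study's title, did not pass the test at day 5. Cer1, the secreted antagonist, read 5.29 and 6.28 with Sox17 shRNA and 7.62 and 7.49 in control, with a difference of -1.77 (SE 0.60, adjusted p = 0.0721), and leaving out 1 array gave -1.27 without Sox17 shRNA replicate 1 (adjusted p = 0.489), -2.26 without replicate 2 (0.0487), -1.70 without control replicate 1 (0.29) and -1.83 without control replicate 2 (0.201). Hhex, a homeobox factor of endoderm and blood precursors, read 6.67 and 7.51 against 8.21 and 8.03, with a difference of -1.03 (SE 0.45, adjusted p = 0.178), which was -0.61 without Sox17 shRNA replicate 1 (adjusted p = 0.743) and -1.45 without replicate 2 (adjusted p = 0.0906). In both genes the 2 Sox17 shRNA arrays lay below the 2 controls, and replicate 1 was the lower. Shisa2, an antagonist of Wnt and Fgf receptors, did pass, at 5.18 and 7.10 against 8.65 and 8.41 (-2.38, SE 0.45, adjusted p = 0.00323). It was the 1 member called among 11 secreted or membrane Wnt antagonists (9.09%, against 3.24% of all genes called lower). Without Sox17 shRNA replicate 1 it differed by -1.42 and was not called.

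Basement membrane genes had 5 of 18 members lower (27.8%) and a median of -0.39, with 3 lower without Sox17 shRNA replicate 1 and 2 without control replicate 2. The list was lower at other days as well. At day 2, 6 members were lower (0.993% of all genes were), with a median of -0.61. At day 4, 4 were lower (1.81%) and 1 higher, with a median of -0.50, and at day 6, 7 were lower (2.36%), with a median of -0.80. Lama1, a laminin chain of early basement membrane, read 6.81 and 6.00 against 9.13 and 9.42 at day 5 (-2.87, SE 0.49, 7.33-fold, adjusted p = 0.00167). Plat, the tissue plasminogen activator, read 6.80 and 7.10 against 8.80 and 8.58 (-1.74, SE 0.19, adjusted p = 2.99e-05, and -0.23 in its other probe set). Both genes were low in both Sox17 shRNA arrays and held their calls without any 1 array. Sparc, a matrix glycoprotein, read 10.98 and 11.30 against 12.12 and 12.35 (-1.09, SE 0.23, adjusted p = 0.00602), but another of its 3 probe sets gave 0.12. Its call was lost without Sox17 shRNA replicate 1 (adjusted p = 0.0933) and without control replicate 2 (0.0638). Of 19 measured visceral endoderm and yolk sac genes, limma called 0, with 0 higher and 5 lower at an unadjusted p under 0.05. The median was -0.39, and 13 of the 19 lay lower without overlap between arms, against 24.6% of all genes. Ttr, a carrier protein of the yolk sac, read 9.12 and 7.80 against 9.93 and 10.26 (adjusted p = 0.512), and Amn, an endocytic receptor subunit, read 5.52 and 4.69 against 6.56 and 6.79. In these 2 genes replicate 2, the array with Sox17 near the control, was the lower. The markers Afp (5.81 and 4.24 against 4.89 and 4.64) and Apoa1 (6.08 and 5.71 against 6.06 and 5.95) had overlapping arms and were not called. Srgn, the granule proteoglycan serglycin, had the lowest difference of all called genes, at 6.82 and 5.16 against 10.06 and 10.18 (-4.13, SE 0.88, 17.6-fold, adjusted p = 0.00718), and replicate 2 was again the lower. Leaving out control replicate 1 or 2 ended the call (adjusted p = 0.0599 and 0.0517).

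Of 20 measured haematopoietic genes 3 were higher (15%, against 6.15% of all genes) and 1, Srgn, was lower (5%), with a median of 0.27. The list median was 0.17 without Sox17 shRNA replicate 1, 0.35 without replicate 2 and 0.30 without either control replicate. The 3 higher calls depended on single arrays, however, and were lost without Sox17 shRNA replicate 1. Hbb-y, an embryonic globin of primitive red cells, had the largest positive difference of any called gene, but its arrays read 10.72 and 5.40 against 3.35 and 3.43. Replicate 1 was thus far above replicate 2, and the difference of 4.67 (SE 1.22, adjusted p = 0.0227) became 2.01 without replicate 1 (adjusted p = 0.429) and 7.33 without replicate 2. It also lost the call without control replicate 1 (adjusted p = 0.138) or 2 (0.103). The globins Hbb-bh1 (11.53 and 7.19 against 6.72 and 7.10) and Hba-x (8.74 and 5.09 against 4.45 and 4.68) likewise read high in replicate 1 alone and were not called. The blood marker Gata1 read 5.44 and 5.38 against 5.72 and 5.65 (-0.27, adjusted p = 0.735). Lmo2, a cofactor of blood and vessel progenitors, read 8.48 and 7.80 against 6.74 and 6.52 (1.51, SE 0.31, adjusted p = 0.00594, with 0.117 without Sox17 shRNA replicate 1 and 0.0564 without control replicate 2). Etv2, which starts the blood and vessel lineages, read 8.38 and 8.40 against 7.16 and 7.50 (1.06, SE 0.28, adjusted p = 0.0222) and was the 1 called member of 20 endothelial genes (5%), but lost the call without any 1 array (adjusted p from 0.0544 to 0.201). Pecam1, Cdh5 and Tek, markers of formed vessels, read 4.23 to 4.96 on the 4 arrays, near background.

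Interferon-response genes, which sense and act on viral and inflammatory signals, had 6 of 18 members higher (33.3%) and a median of 0.44. Psmb8, a subunit of the immunoproteasome, read 8.60 and 6.80 against 5.61 and 5.08 (2.36, SE 0.42, adjusted p = 0.00204, and 0.44 in its other probe set). The factor Irf1 read 9.88 and 8.63 against 8.12 and 7.98 (1.21, SE 0.25, adjusted p = 0.00626), and Ifit2, an antiviral protein, read 5.54 and 5.32 against 4.63 and 4.49 (0.87, SE 0.19, adjusted p = 0.00726). In Psmb8 and Irf1 replicate 1 was the higher, and both Sox17 shRNA arrays lay above the controls in all 3. Without replicate 1 Psmb8 differed by 1.46 (adjusted p = 0.045) and Irf1 by 0.58 (adjusted p = 0.0938), and without replicate 2 Irf1 differed by 1.83. Irf1 and Ifit2 also lost the call without control replicate 2 (adjusted p = 0.055 and 0.0661), and Ifit2 without Sox17 shRNA replicate 1 (0.0974). The list held 1 higher member without Sox17 shRNA replicate 1 or control replicate 2, and 3 without control replicate 1. Cell division genes had 5 of 24 members higher (20.8%) and a median of 0.30. Mcm2, a subunit of the replication helicase, read 11.69 and 11.04 against 10.35 and 10.46 (0.95, SE 0.19, adjusted p = 0.00464). Without Sox17 shRNA replicate 1 or control replicate 1 the division list held 0 called members.

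Smooth muscle and cytoskeleton genes had 3 of 14 members higher (21.4%) and a median of 0.32, with 2 higher without Sox17 shRNA replicate 1 or either control replicate. Tagln, an actin-binding protein of smooth muscle and of early mesoderm, read 9.73 and 8.90 with Sox17 shRNA and 6.35 and 6.08 in control (3.10, SE 0.38, 8.57-fold, adjusted p = 1.13e-04), and both Sox17 shRNA arrays were well above both controls. Tpm4, a tropomyosin, differed by 0.62 (SE 0.09, adjusted p = 3.9e-04), and Myl9, a regulatory myosin light chain, by 1.10 (adjusted p = 0.0353), with 0.43 and an adjusted p of 0.566 without Sox17 shRNA replicate 1, and 1.78 without replicate 2. Myl9 was also not called without control replicate 1 (adjusted p = 0.181) or 2 (0.13). Other genes with large rises were Igfbp3, a binding protein of insulin-like growth factors (10.84 and 8.52 against 6.79 and 6.39, a difference of 3.09), and Psmb10, also of the immunoproteasome (10.75 and 9.73 against 7.81 and 7.36, a difference of 2.65). Both were higher in replicate 1 than in replicate 2 and above the controls in both, with adjusted p of 0.00133 and 1.12e-05. Without replicate 1 Igfbp3 differed by 1.93. Other genes with large falls were Klhl4 (3.74 and 5.77 against 8.40 and 7.92, a difference of -3.40, and -0.48 in its other probe set), Frem1, a protein of embryonic basement membranes (-2.75), and Nxf3, an RNA export factor (-2.61). The calls of these 5 genes and of Tagln and Tpm4 held without any 1 array.

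**Figure D3:**
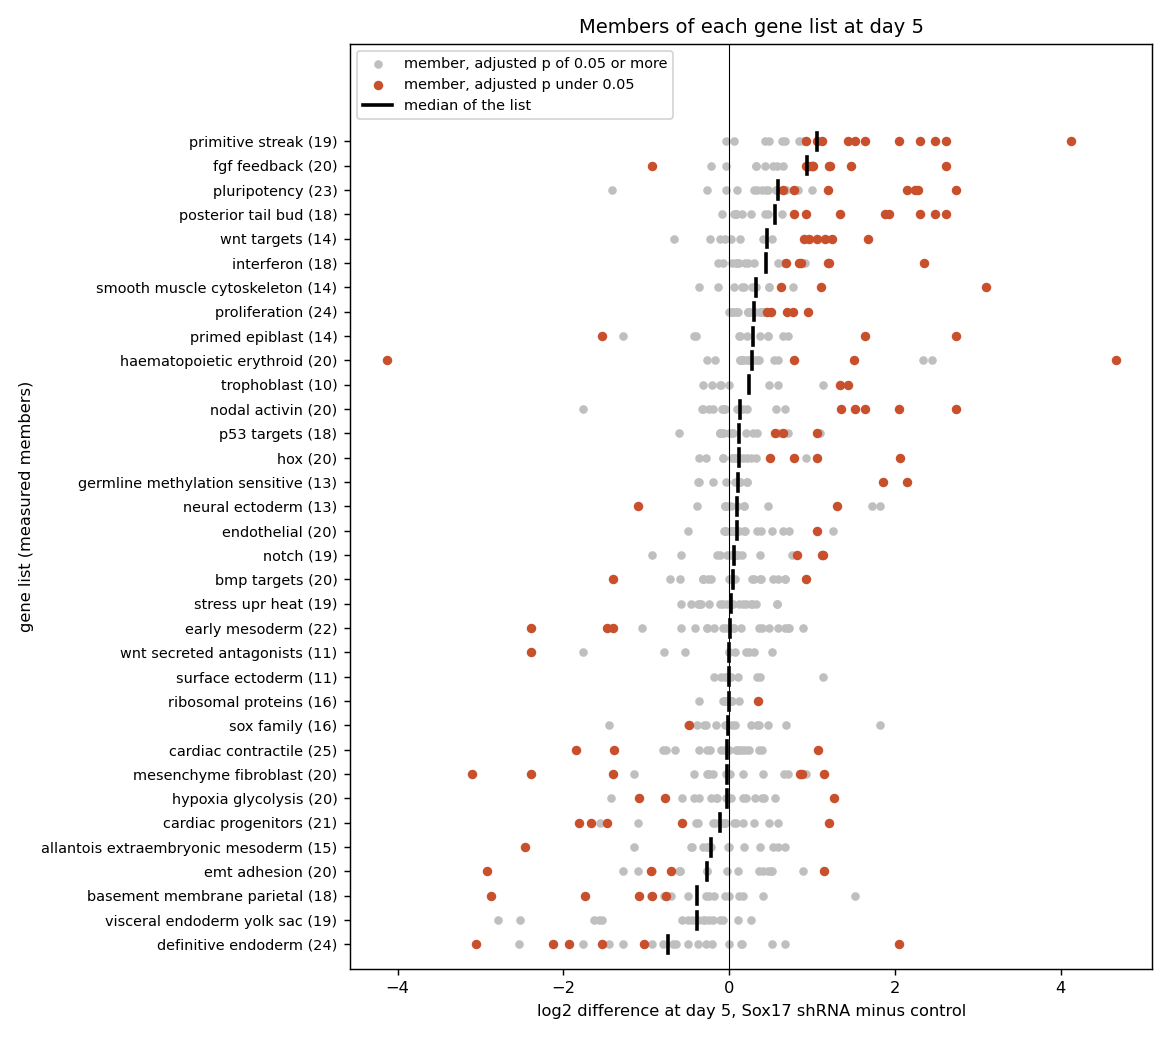
Log2 differences at day 5 (x axis) of the measured members of 34 gene lists (y axis, with the number of members), ordered by list median. Orange points passed the test, grey points did not, and black bars are medians. Primitive streak (1.06) and Fgf (0.95) lists have the highest medians, and definitive endoderm (-0.74) the lowest.

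The streak and signalling differences were set beside those of other days, which used other arrays. The streak list had a median of 0.02 on day 2, 0.10 on day 4, 1.06 here and -0.01 on day 6. That of the Fgf list was 0.11, 0.19, 0.95 and -0.26 on the same days. At day 4, 4 of the 19 streak genes were called higher (3.33% of all genes were) and 3 lower (1.81%). By limma's test the day 5 difference exceeded that of day 4 for 1 streak gene and 2 of 20 Fgf genes. Against day 6 it did so for 4 and 5. Evx1 was called higher at day 4 (0.91, adjusted p = 0.0225) and at day 6 (1.49, adjusted p = 3.12e-04) as well. Its day 5 minus day 6 test gave 0.99 (adjusted p = 0.221). For Mixl1 the controls went from 10.08 and 10.10 on day 4 to 5.82 and 6.25 on day 5, while the Sox17 shRNA arrays gave 10.37 and 11.36, then 10.43 and 9.89. By day 6 the 4 arrays read 5.05 to 6.21. The level was therefore high in both arms at day 4, still high at day 5 in the Sox17 shRNA arm, and low in both at day 6. The day 5 difference of Mixl1 exceeded that of day 4 by 3.35 (SE 0.52, adjusted p = 0.00817) and that of day 6 by 3.18 (SE 0.52, adjusted p = 0.00383). Gsc followed the same course, with controls at 7.16 and 6.88 on day 4 and 4.40 and 4.44 on day 5, against 6.38 and 7.86, then 6.50 and 6.44, with Sox17 shRNA. Its day 5 difference exceeded that of day 6 by 2.04 (adjusted p = 0.0142), but the test against day 4 gave 1.94 with an adjusted p of 0.0608.

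For Alx1 and Rarb the order was the reverse. Alx1 read 3.71 to 4.02 on the 4 arrays of day 4, and at day 5 the controls had reached 7.35 and 6.87 while the Sox17 shRNA arrays stayed at 3.95 and 4.06. Its day 5 difference was below that of day 4 by -2.91 (SE 0.31, adjusted p = 3.02e-04). At day 6 the controls were back to 5.57 and 5.11, and the day 5 difference was below that of day 6 by -1.70 (adjusted p = 0.00912). Rarb read 4.66 to 4.83 on the 4 arrays of day 4 and 8.28 and 7.88 in the controls at day 6, against 5.32 and 6.20 with Sox17 shRNA. Its day 5 minus day 4 test gave -2.11 (adjusted p = 0.00399). Pcdh8 read 6.88 and 7.80 with Sox17 shRNA at day 4 against 5.22 and 6.37 in control, above it where day 5 was below, and this test gave -3.29 (adjusted p = 0.00304). In the other direction, Klhl6 (3.02, adjusted p = 0.0208), Fgf15 (2.07, adjusted p = 0.0202) and Fgf10 (1.95, adjusted p = 0.00255) had day 5 differences above those of day 4. Klhl6 read 6.17 and 8.12 at day 4 with Sox17 shRNA, so its day 4 arrays were far apart.

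**Figure D4:**
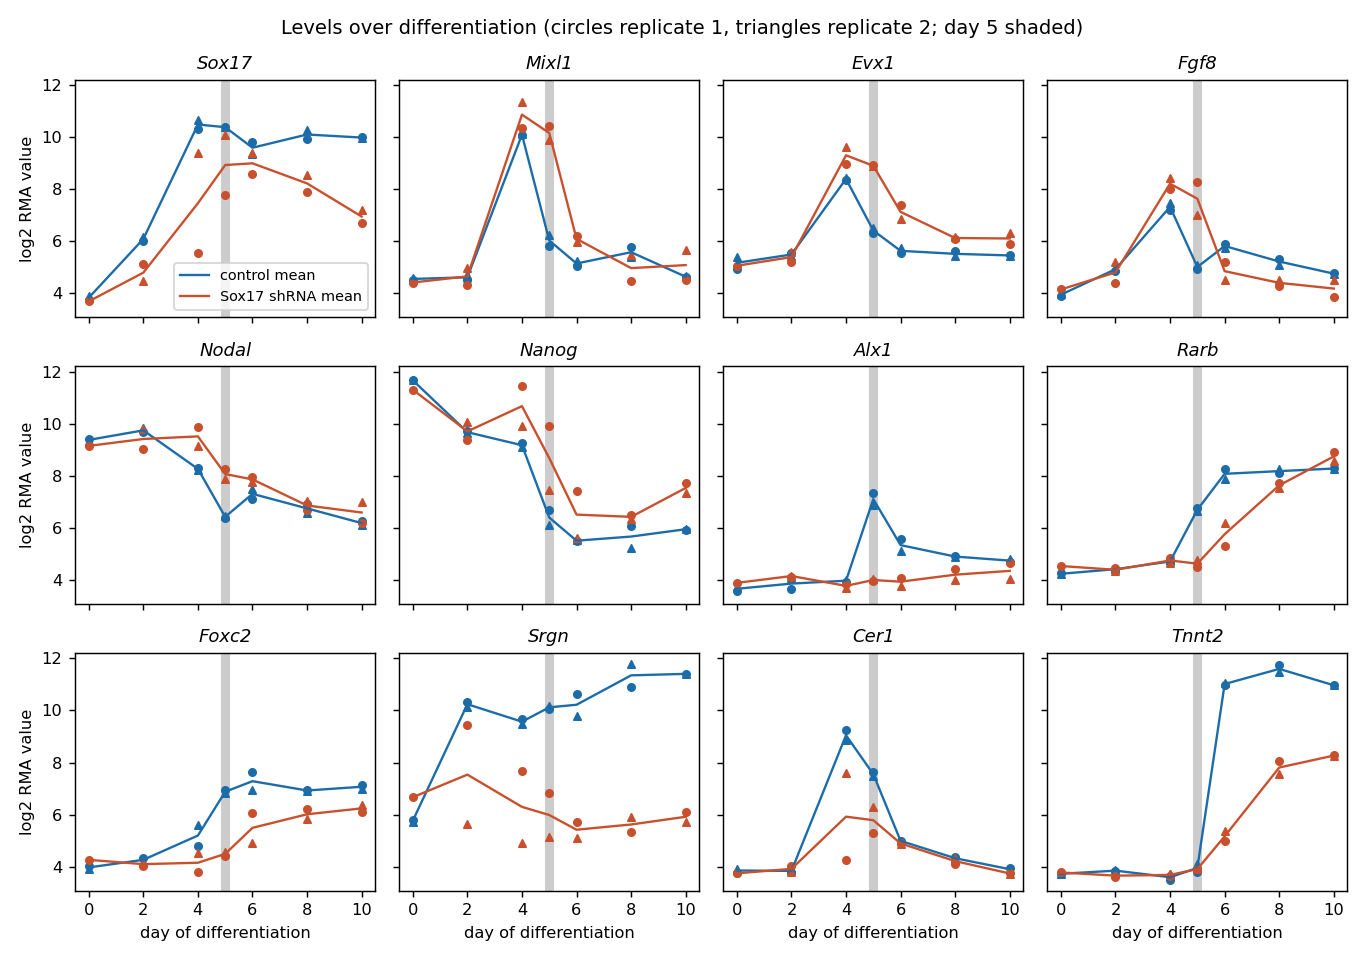
Log2 RMA values over days 0 to 10 (x axis, day of differentiation) for 12 genes, with lines for the mean of each arm, circles for replicate 1, triangles for replicate 2 and day 5 shaded. Mixl1, Evx1 and Fgf8 are high in both arms at day 4 and high in the Sox17 shRNA arm alone at day 5, while Alx1, Rarb and Foxc2 are high in control alone at day 5 and Tnnt2 is near background in both arms through day 5.

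At day 4, 3.33% of all genes were called higher and 1.81% lower, at day 6 2.84% and 2.36%, and at day 2 1.55% and 0.993%. Of the genes higher at day 5, 265 were also called higher at day 4 (32.4% of the day 5 calls, 59.8% of those of day 4) and 206 at day 6 (25.2% and 54.6%). Of the genes lower at day 5, 95 were also lower at day 4 (22% and 39.4%) and 97 at day 6 (22.5% and 30.9%). At day 2, before plating, 92 higher genes were shared (11.2% and 44.7%) and 33 lower (7.66% and 25%). The Sox17 difference was -1.29 at day 2 (limma adjusted p = 0.547), -3.02 at day 4 (adjusted p = 0.0377) and -0.60 at day 6 (adjusted p = 0.835). Genes called in opposite directions numbered 3 with day 4, 4 with day 6 and 6 with day 2. The difference itself departed from that of day 4 for 13 genes (0.0978%), 8 of them above it (0.0602%) and 5 below (0.0376%). That count was 3 with array weights, 85 with bioB as a covariate, and 200 without Sox17 shRNA replicate 2 of day 4 and of day 6, the 2 arrays of highest actin 3' minus 5' difference (0.86 and 0.75), left out after seeing the data. At day 4 bioB read 9.04 and 9.37 in replicate 1 of the arms and 6.79 and 6.83 in replicate 2. It departed from day 6 for 94 genes (0.707%), with 72 above (0.541%) and 22 below (0.165%), and from day 2 for 201 (1.51%), with 121 above (0.91%) and 80 below (0.602%). The contractile list showed the contrast with day 6 most plainly. At day 6, 17 of its 25 members were lower (2.36% of all genes were) with a median of -1.93, and for 12 of the 25 the day 5 difference lay above that of day 6 by limma's test. For Tnnt2 the controls read 10.98 and 11.05 at day 6 against 4.97 and 5.37 with Sox17 shRNA, while the 4 arrays of day 5 read 3.80 to 4.11. Srgn read 9.43 and 5.64 against 10.33 and 10.15 at day 2, where its Sox17 shRNA arrays differed widely. Nkx1-2 was higher with Sox17 shRNA at day 4 (8.18 and 7.65 against 5.00 and 4.72) as well as at day 5 and day 6 (7.03 and 7.23 against 4.41 and 4.29).

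**Figure D5:**
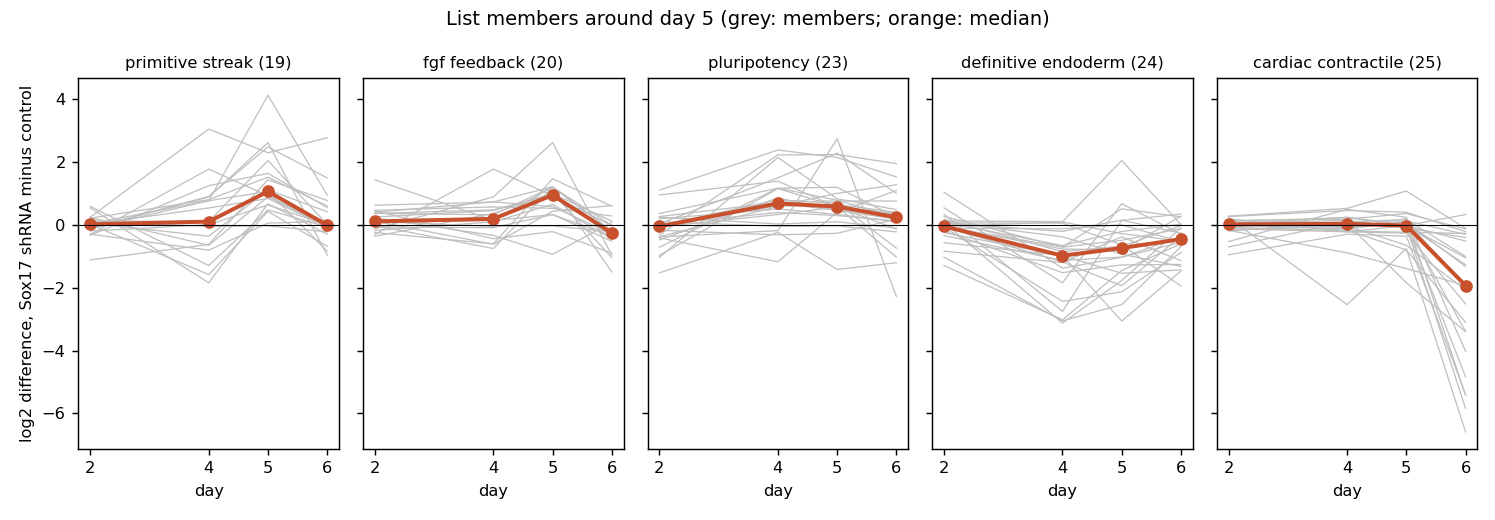
Log2 differences between arms (y axis) at days 2, 4, 5 and 6 (x axis) for the members of 5 gene lists (grey lines) with the list median (orange). The streak and Fgf medians are highest at day 5 (1.06 and 0.95), the definitive endoderm median is lowest at day 4 (-0.98), and the contractile median is -0.02 at day 5 and -1.93 at day 6.

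Start windows were found for 79 of the 106 called genes that the naming rule picked, 48 of them higher and 31 lower. A gene was counted if any of its windows held the letters, and the 79 genes had 100 windows. The shares of all windows are per window, so the 2 measures differ. The Sox core ATTGTT (or AACAAT) was in a window of 4 of the 48 higher genes (Dusp6, Evx1, Evx1os and Hk2) and of 3 of the 31 lower genes (Hopx, Myh7 and Rarb), against 10.7% of all windows. The Tcf/Lef letters CTTTGA, through which Wnt signals act, were in those of 8 higher and 3 lower genes, Sp5, Tnfrsf19 and Wnt5b among the higher, against 16% of all windows. The T-box letters TCACACC were found for 1 and 0 (3.98% of all windows) and the GATA letters AGATAA for 2 and 5 (11.2%), each on either strand. These counts describe the letters in these windows and say nothing of the factors.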

How the data were processed

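RNA of 27 cultures was hybridised to Affymetrix mouse arrays, and the deposited log2 values had been made with RMA, per the submitters' processing notes, with no version given in the sources used here. Whether all arrays were normalised together is also not given, and the array medians lay between 5.5 and 5.56. Of 45101 probe sets, 34958 had 1 gene symbol, 932 had several and 9211 were not listed, and 34754 of the named ones matched RefSeq. Probe sets above the overall median (5.53) on at least 2 arrays were kept (23536), and each of 13297 genes was represented by its probe set of highest mean. Of 147 genes picked by the naming rule, Sox17 included, 83 had several probe sets. For 13 of these a probe set gave the other sign, and sizes could vary where the signs were the same.

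Group means of the 14 arm and day groups were fitted with limma 3.58.1 in R 4.3.3 (eBayes with an intensity trend). Adjusted p-values are limma's with Benjamini-Hochberg adjustment over all genes, called under 0.05, and differences are Sox17 shRNA minus control. Differences between days were tested as interaction contrasts. In simulated data for this comparison with 13297 genes, 87% of 100 genes changed by 1 log2 unit and 100% of 100 changed by 2 were recovered. Of the unchanged genes, 7 were called. The simulation gave a gene the same spread on all arrays. In the data the SD of the difference between day 5 replicates was 0.38 with Sox17 shRNA and 0.18 in control. Recovery at such unequal spreads was not tested. The number of arrays limits the precision.

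The members and the 34 gene lists were chosen with earlier results of these data known. Genes were named by a rule (the called genes of largest difference, called members of the lists, and markers). Actc1, Afp, Aldh1a2, Amn, Apoa1, Cdh5, Cyp26a1, Gata1, Hba-x, Hbb-bh1, Myh6, Myl2, Pax6, Pecam1, Pou5f1, Sox1, Tek, Ttn and Zic1 were named after their values were seen. Alternatives varied the arrays fitted, the filter, the choice of probe set, array centring, array weights, a bioB covariate, replicate blocks and each left-out array. Promoter windows are those of RefSeq in GRCm38.p6, and the windows searched do not cover every chromosome.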

Additional observations from a re-analysis of the deposited data

Results flagged for a closer look

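The difference between arms at day 5 departed from that at another day, by limma's test of the difference itself, for 13 genes against day 4, 94 against day 6 and 201 against day 2. Values below are the day 5 difference minus the other day's on the log2 scale, for the genes named in the text or picked by the naming rule that passed this test.

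Against day 4, the day 5 difference was above for Mixl1 by 3.35 (adjusted p = 0.00817), Klhl6 by 3.02 (adjusted p = 0.0208), Fgf15 by 2.07 (adjusted p = 0.0202) and Fgf10 by 1.95 (adjusted p = 0.00255). For Rarb it gave -2.11 (adjusted p = 0.00399), for Alx1 -2.91 (adjusted p = 3.02e-04) and for Pcdh8 -3.29 (adjusted p = 0.00304).

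Against day 6, contractile genes of heart muscle gave 5.83 for Myl7, an atrial myosin light chain (adjusted p = 2.02e-06), 5.80 for Tnnt2 (adjusted p = 3.66e-11), 5.62 for Myl4 (adjusted p = 6.3e-09) and 5.04 for Myh6 (adjusted p = 5.97e-11). Further contractile genes were Ttn at 4.79 (adjusted p = 2.23e-07), Actc1 at 4.27 (adjusted p = 2.73e-08) and Myl2 at 3.37 (adjusted p = 0.0194). None of these 7 was called at day 5. The heart factor Mef2c, lower with Sox17 shRNA at day 5, gave 1.66 (adjusted p = 0.0423), since its difference at day 6 was lower still. Signalling and streak genes gave 5.02 for Tdgf1 (adjusted p = 4.42e-05), 3.59 for Fgf8 (adjusted p = 3.49e-04), 3.18 for Mixl1 (adjusted p = 0.00383), 2.71 for Dusp6 (adjusted p = 0.00613), 2.06 for Etv5 (adjusted p = 4.34e-04), 2.04 for Gsc (adjusted p = 0.0142), 1.90 for Sp5 (adjusted p = 0.0151) and 1.22 for Fgf10 (adjusted p = 0.0234). Igfbp3 gave 4.00 (adjusted p = 0.0101), Tagln 2.61 (adjusted p = 0.0234) and Hk2, a hexokinase, 1.61 (adjusted p = 0.0134). In the other direction stood Alx1 at -1.70 (adjusted p = 0.00912), Plat at -1.74 (adjusted p = 0.00201), Slco4c1 at -2.28 (adjusted p = 0.0229), Spin2c at -2.34 (adjusted p = 0.00286) and Snai2 at -3.11 (adjusted p = 0.0317).

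Against day 2, streak and posterior genes gave 4.09 for Mixl1 (adjusted p = 4.83e-04), 2.75 for Evx1os (adjusted p = 0.0013), 2.58 for Evx1 (adjusted p = 2.58e-04), 2.55 for Eomes (adjusted p = 0.0158), 2.45 for Hoxd9 (adjusted p = 0.00989), 2.05 for Nkx1-2 (adjusted p = 0.00451) and 1.92 for Gsc (adjusted p = 0.0159). Signalling genes gave 4.04 for Fst, the activin antagonist follistatin (adjusted p = 0.00694), 3.35 for Tnfrsf19 (adjusted p = 0.00118), 3.13 for Tdgf1 (adjusted p = 0.00753), 2.74 for Fgf8 (adjusted p = 0.0059), 1.97 for Nodal (adjusted p = 0.013), 1.71 for Fgf15 (adjusted p = 0.0189), 1.55 for Wnt5b (adjusted p = 0.0419), 1.38 for Etv5 (adjusted p = 0.0145), 1.22 for Fgf10 (adjusted p = 0.017) and 1.07 for Ccnd1 (adjusted p = 0.0438). Genes that interferon induces gave 4.58 for Gbp2, a GTPase (adjusted p = 0.00451), 3.47 for Psmb8 (adjusted p = 0.0059), 2.78 for Psmb10 (adjusted p = 7.63e-04) and 1.70 for Irf1 (adjusted p = 0.0201). Morc1, a factor of germ cells, gave 3.76 (adjusted p = 0.00718), Tagln 3.54 (adjusted p = 0.00212) and Igfbp3 3.33 (adjusted p = 0.0261).

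Negative values against day 2 were found for the factors Sox21 at -0.88 (adjusted p = 0.0294), Sox4 at -1.14 (adjusted p = 0.0481), Foxc1 at -1.53 (adjusted p = 0.0438), Mef2c at -1.74 (adjusted p = 0.0201), Foxc2 at -2.22 (adjusted p = 0.0158), Snai2 at -3.30 (adjusted p = 0.0151) and Alx1 at -3.40 (adjusted p = 2.81e-05). Smarcd3 gave -2.02 (adjusted p = 0.00601), Rarb -2.05 (adjusted p = 0.0013) and the receptor Fgfr2 -1.16 (adjusted p = 0.0378). Proteins of the membrane and matrix gave -1.20 for Plat (adjusted p = 0.0289), -2.06 for Slco4c1 (adjusted p = 0.0303), -2.29 for Pcdh8 (adjusted p = 0.0118), -2.49 for Cpm (adjusted p = 0.00582), -2.62 for Frem1 (adjusted p = 0.0142) and -2.65 for Shisa2 (adjusted p = 0.0461). Nxf3 stood at -2.07 (adjusted p = 0.00754) and Klhl4 at -3.48 (adjusted p = 0.013).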

How the results depend on the processing

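The 818 higher and 431 lower genes became 142 and 102 when the 4 day 5 arrays were fitted alone, 183 and 84 with the arrays of days 4 to 6, and 154 and 116 when a 2-fold change was also required. The fit of the 4 day 5 arrays alone shared 209 of the 1249 calls (16.7%). Leaving out each day 5 array gave 222 to 947 higher and 92 to 763 lower. Without the 2 arrays of highest 3' to 5' difference (Sox17 shRNA replicate 2 of days 4 and 6), chosen after seeing the data, 683 were lower and Sox17 gave -1.45 with an adjusted p of 0.0498. Sox17 lay between -2.61 and -0.30 over the left-out arrays and was -0.89 with bioB as a covariate (adjusted p = 0.36). The 13 genes whose difference departed from day 4 became 3 with array weights, 20 with a day 5 filter, 22 with the mean of probe sets, 24 with centred arrays, 85 with bioB as a covariate, 200 without the 3' to 5' arrays and 4 to 48 over the left-out arrays. The 94 for day 6 became 50 with a day 5 filter, 158 with bioB and 46 to 415 over the left-out arrays. The 201 for day 2 became 360 with array weights, 357 with bioB, 400 without the 3' to 5' arrays and 63 to 553 over the left-out arrays. Centring each array gave 695 higher and 543 lower. The cause of these shifts was not tested. Same-numbered replicates of the arms correlated above 0.1 on 5 of 6 days (0.683 at day 4, 0.22 at day 5) and at 0.0986 on day 10. Because no label ties the numbers, and 1 day fell just short of 0.1, they were not taken to pair samples. The correlation was positive on all 6 days, so a link between same-numbered arrays is not excluded. With the number as a replicate block 942 were higher and 523 lower, and 22 departed from day 4. A block within each day gave 1046 and 592, ended the call of 4 of 146 named genes and added 6.

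Genes not called at day 5 changed sign in places. With the probe set of largest SD, Egfl7 gave 0.11 and Tnnt2 0.062. With the mean of probe sets, Dlx3 gave -0.042, Egfl7 0.12, Hspa5 -0.014, Nes -0.16 and Tnnt2 0.0085. With centred arrays, Dlx3 gave -0.0081, Hsp90b1 -0.0027 and Rplp0 -0.0024. With bioB, Dlx3 gave -0.14 and Hsp90b1 -0.015. Over the left-out arrays the ranges were -1.05 to 0.13 for Ahnak, -0.33 to 0.19 for Asns, -0.007 to 0.041 for Dlx3, -0.14 to 0.19 for Hsp90b1, -0.14 to 0.23 for Hspa5, -0.034 to 0.18 for Id1, -0.52 to 1.25 for Msx2, -0.062 to 0.42 for Nes, -0.28 to 0.18 for Pax3, -0.011 to 0.082 for Rpl4, -0.16 to 0.024 for Rps14, -0.21 to 0.35 for Sox11, -0.20 to 0.43 for Tex19.1 and -0.20 to 0.11 for Tnnt2. Values near background bound what a fold can show.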

Other observations

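Of 13 measured neural genes 1 was called higher (7.69%, against 6.15% of all genes) and 1 lower (7.69%, against 3.24%), with a median of 0.10. Some read high in Sox17 shRNA replicate 1. Sox1, a factor of the neural plate, read 6.70 and 3.86 against 3.48 and 3.43 (1.82, adjusted p = 0.143), but its other probe set gave 0.01. Zic1 read 6.08 and 4.33 against 3.56 and 3.40 (1.72, adjusted p = 0.19), and neither Sox1 nor Zic1 was called. The neural marker Pax6 read 4.64 and 4.09 against 4.31 and 4.39 (0.02, adjusted p = 0.98). Gbx2, a homeobox factor of the hindbrain border and of pluripotent cells, was called at 5.70 and 4.01 against 3.54 and 3.55 (1.31, adjusted p = 0.0421), and without Sox17 shRNA replicate 1 it differed by 0.46 (adjusted p = 0.643). Without replicate 2 its difference was 2.15, and without control replicates 1 and 2 its adjusted p was 0.191 and 0.155. Six3, a factor of the anterior brain, read 4.35 and 4.64 against 5.76 and 5.42 (-1.10, SE 0.18, adjusted p = 9.51e-04) and kept its call without any 1 array, although its 3 probe sets spanned -1.10 to 0.06.

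Of 19 Notch pathway genes, 3 were higher (15.8%), with a median of 0.06. Notch3, a receptor, read 9.33 and 9.59 against 8.31 and 8.34 (1.14, adjusted p = 0.0227), and the target Hes1 read 8.20 and 8.47 against 7.32 and 7.72 (0.82, adjusted p = 0.00313). Both Sox17 shRNA arrays lay above both controls in either gene. The call of Notch3 was lost without any 1 array (adjusted p from 0.0864 to 0.139) and that of Hes1 without control replicate 1 (adjusted p = 0.0754). Of 20 epithelial and adhesion genes, 3 were lower (15%, against 3.24% of all genes) and 1, Fn1, was higher (5%). Beside Snai2 the lower ones were Rab25 at -0.94 (adjusted p = 0.0185) and Ap1m2 at -0.70 (adjusted p = 0.0365), both of epithelial membrane traffic. The calls of Rab25 and Ap1m2 were lost without every array except Sox17 shRNA replicate 2 (adjusted p from 0.0744 to 0.398).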
